A study of Mus musculus with 4 samples.

Results

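Complement is a set of plasma proteins and receptors that tag and lyse targets, and the liver is its main source. The genes described here are 33 complement components, regulators and receptors, of 24346 gene symbols listed in each library. They were taken by symbol from a list of complement genes, and all 33 were above 0 FPKM in all 4 libraries. The libraries came from whole liver of male ob/ob mice, whose obesity comes from a missing leptin gene product, and feeding began at 6 weeks of age. CD was a regular chow diet and WD a western type diet rich in cocoa butter and sucrose, and both contained 1% cholesterol. CD+7KC and WD+7KC were the same diets with 0.01% 7-ketocholesterol (7KC), an oxidized form of cholesterol. Every group was fed for 4 weeks and had 1 library, and the number of mice behind a library was not given. Differences below therefore have no replicate check, and p-values are not given.

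Complement can be started in several ways. In the classical pathway C1q binds antibody or damaged surfaces and turns on the proteases C1r and C1s. In the lectin pathway mannose-binding lectins, ficolins and collectins bind sugars and turn on the MASP proteases. Both cut C4 and C2, whereas the alternative pathway uses factor B, factor D and properdin, and all of them converge on C3. Cleavage of C5 then starts the assembly of C6, C7, C8 and C9 into a membrane pore. Most of the soluble proteins are secreted by hepatocytes, while C1q, properdin and the receptors for the cleaved fragments of C3 and C5 come mainly from macrophages and other leukocytes, among them the resident Kupffer cells.

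By the known main source of their product, the 33 genes were divided into 20 hepatocyte-made members, 7 macrophage-made members and 6 others. The macrophage-made members were C1qa, C1qb, C1qc, Cfp, Fcna, C3ar1 and C5ar1. The others were C7, Colec10 and Colec11, which stellate cells make, Cfd, which fat cells make, and Cd55 and Cd59a, which many cell types carry. In whole tissue, a change in the number of cells of a type and a change in RNA per cell cannot be told apart.

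Several members lie side by side in the mouse genome (GRCm38). C1qb, C1qc and C1qa follow each other on chromosome 4 (C1qa at 136895916 to 136898844), with 3600 and 2979 bases between them. C8b and C8a are separated by 11130 bases on the same chromosome, and Cfb and C2 by 87 bases on chromosome 17. The stretch of DNA just before the start of a gene is where many transcription factors bind. It is shown for C1qb and C1qc, for C8a and C8b, which lie side by side, and for Fcna and Cfd. The sequences are the 250 bases before an annotated RefSeq start (GRCm38.p6), written 5′ to 3′ on the strand of the gene. In the genes made by macrophages, capitals mark the core GAGGAA (or its reverse complement) recognized by PU.1, a factor of the myeloid lineage. In C8a and C8b, capitals mark the core GTTAAT (or its reverse complement) recognized by HNF1, a factor of hepatocytes. Cfd had the largest change of all members, and its window held no match to the C/EBP core TTGCNNAA.
C1qb (chr4:136886201-136886450, minus strand): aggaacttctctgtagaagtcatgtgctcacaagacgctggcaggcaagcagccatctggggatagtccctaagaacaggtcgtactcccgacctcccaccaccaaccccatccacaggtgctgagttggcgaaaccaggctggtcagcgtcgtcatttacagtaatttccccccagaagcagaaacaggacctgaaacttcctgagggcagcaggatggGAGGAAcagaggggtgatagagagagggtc
C1qc (chr4:136892915-136893164, minus strand): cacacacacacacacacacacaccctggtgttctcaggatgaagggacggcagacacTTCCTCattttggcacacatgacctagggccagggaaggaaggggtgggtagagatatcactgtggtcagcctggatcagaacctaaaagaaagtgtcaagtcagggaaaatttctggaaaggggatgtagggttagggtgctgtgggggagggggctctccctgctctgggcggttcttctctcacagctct
Fcna (chr2:25627975-25628224, minus strand): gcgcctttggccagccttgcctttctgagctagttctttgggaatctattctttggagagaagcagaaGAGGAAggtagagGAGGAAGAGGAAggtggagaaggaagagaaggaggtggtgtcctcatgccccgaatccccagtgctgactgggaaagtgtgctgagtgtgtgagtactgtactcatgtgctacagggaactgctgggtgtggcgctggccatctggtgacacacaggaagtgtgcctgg
C8a (chr4:104876399-104876648, minus strand): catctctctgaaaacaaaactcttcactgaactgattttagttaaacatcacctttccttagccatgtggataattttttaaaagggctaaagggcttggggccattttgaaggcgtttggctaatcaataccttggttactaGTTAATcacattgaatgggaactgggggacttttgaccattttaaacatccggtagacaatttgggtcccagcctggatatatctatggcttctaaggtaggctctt
C8b (chr4:104766067-104766316, plus strand): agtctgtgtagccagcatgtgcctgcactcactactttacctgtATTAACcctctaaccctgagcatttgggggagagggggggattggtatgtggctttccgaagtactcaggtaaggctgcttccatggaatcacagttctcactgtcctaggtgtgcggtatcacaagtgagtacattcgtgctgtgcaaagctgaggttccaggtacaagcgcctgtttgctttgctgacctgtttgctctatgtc
Cfd (chr10:79890603-79890852, plus strand): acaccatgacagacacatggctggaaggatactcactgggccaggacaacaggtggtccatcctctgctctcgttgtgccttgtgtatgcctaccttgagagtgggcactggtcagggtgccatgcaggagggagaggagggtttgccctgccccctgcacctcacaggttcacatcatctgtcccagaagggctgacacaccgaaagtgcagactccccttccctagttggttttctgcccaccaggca

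In the windows shown, the PU.1 core began 30 bases before the start of C1qb and 193 before that of C1qc. Fcna held 3 copies, beginning 182, 169 and 163 bases before the annotated start used. That window lay wholly within the annotated span of Fcna (25624665 to 25635440), and those of C1qc and C8a lay partly within theirs. The HNF1 core began 107 bases before the start of C8a and 206 before that of C8b. RefSeq windows were at hand for 24 of the 33 members (25 windows). The PU.1 core was found in 3 of 6 windows of macrophage-made members and in 0 of 14 windows of hepatocyte-made members, and 23.3% of all 32851 windows held it. The HNF1 core was found in 1 of 6 and in 6 of 14 of these windows, against 6.43% of all windows. The HNF1 core was present in C1ra, C4bp, C8a, C8b, Hc and Vtn among the hepatocyte-made members. The cores GAAANNGAA of interferon response factors, TTCNNNGAA of STAT factors and TTGCNNAA of C/EBP factors were found in 3, 4 and 2 of the 25 windows, against 7.13%, 7.02% and 9.56% of all windows. Both strands were searched. A match describes these letters only and is not evidence of binding.

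Low FPKM values rose in steps of whole reads, from which between 9380000 and 12040000 fragments per library were estimated. Reads estimated in this way stand behind the exact (Clopper-Pearson) 95% counting intervals given for single genes, which cover counting error only and not the spread between mice. The FPKM values summed to less in WD+7KC than in the other libraries. After rescaling all libraries to equal sums, the all-gene median log2 fold change moved from 0.002 to 0.21 for WD+7KC against WD, and from 0.003 to 0.20 for WD+7KC against CD+7KC. For the comparisons within CD and WD against CD without 7KC, it stayed at or below 0.041. Log2 fold changes were taken on FPKM + 0.1, which understates the change of low genes, and a gene was counted as higher or lower when it exceeded 1 on this scale in either direction. The deposited values are given unless rescaling is named.

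Liver complement expression was carried by the hepatocyte-made members, whose FPKM values summed to 5060 (CD), 4953 (CD+7KC), 5096 (WD) and 4795 (WD+7KC). The macrophage-made members summed to 135 (CD), 204 (CD+7KC), 231 (WD) and 410.3 (WD+7KC). On the deposited values the hepatocyte-made sum thus stayed within a narrow range while the macrophage-made sum was lowest in CD and highest in WD+7KC. All FPKM values summed to 602059 in WD+7KC, beside 696062 to 715605 in the other libraries. The place of WD+7KC as the lowest hepatocyte-made sum therefore depends on the scaling. Within each library the highest members were Vtn, C3 and Clu, and 12 members were at or above 100 FPKM in every library.

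**Figure D1:**
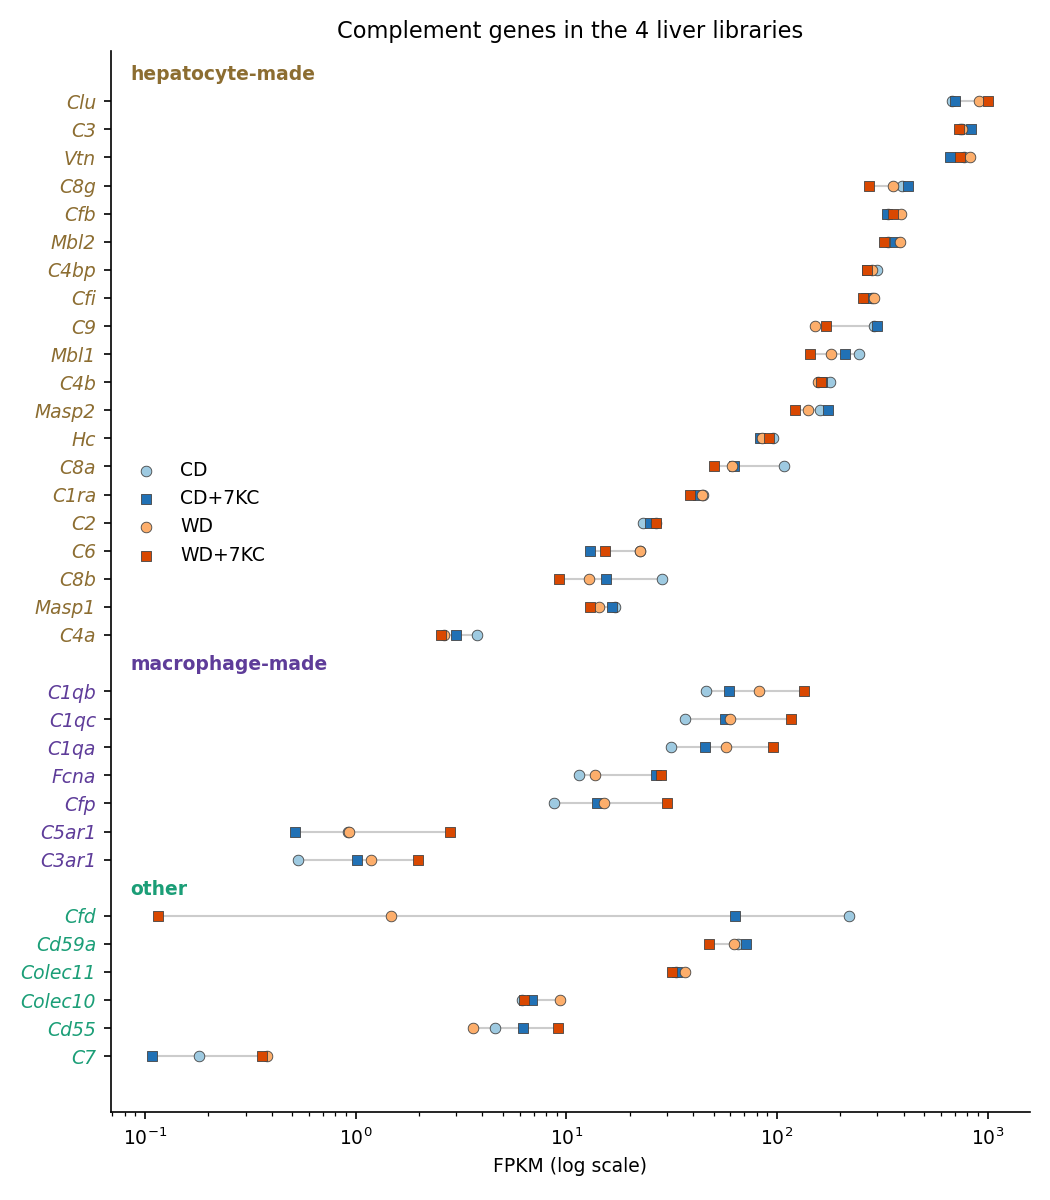
FPKM (log scale) of the 33 complement genes in the 4 libraries, with 1 symbol per library and genes grouped by the main source of their product and ordered by mean FPKM. The 3 C1q genes lie lowest in CD and highest in WD+7KC, whereas Cfd falls from 220.0 FPKM in CD to 0.115 FPKM in WD+7KC.

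Adding 7KC to WD left the classes apart. The median change in log2 units in WD+7KC against WD was 0.96 for the 7 macrophage-made members, all of them higher, and -0.15 for the 20 hepatocyte-made members, beside 0.002 for all genes. After rescaling to equal sums the medians were 1.17 and 0.061, so that the hepatocyte-made median changed sign. Rescaling moves all genes of a library together, so it could not test the difference between the classes. Of the 33 members, 3 (Fcna, Cd55 and C5ar1) were above 1, beside 6.21% of all 15753 genes, and 1 (Cfd) was below -1, beside 2.79%. Among genes averaging 1 FPKM or more these shares were 2.72% and 0.769%. With a lower threshold of 1.5-fold on the same scale, 8 members (24.2%) were higher, beside 14.2% of all genes and 7.50% of those averaging 1 FPKM or more, and 1 (Cfd) was lower, beside 6.86% and 3.04%. The 8 were the 7 macrophage-made members and Cd55.

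Adding 7KC to CD gave the same order of the classes with smaller differences. The median change in log2 units in CD+7KC against CD was 0.64 for the macrophage-made members, with 6 of 7 higher, and -0.091 for the hepatocyte-made members, with 7 of 20 higher. Of the 33 members, 1 (Fcna) was above 1, beside 3.84% of all genes, and 1 (Cfd) was below -1, beside 2.91%. Among genes averaging 1 FPKM or more these shares were 1.18% and 0.862%. Past 1.5-fold, 4 members were higher, beside 10.4% of all genes, and 5 (Cfd, C8b, C8a, C6 and C5ar1) were lower, beside 7.11%. Of genes averaging 1 FPKM or more, as 32 of the members did, 4.40% and 3.05% were past it. The exception among the macrophage-made members was C5ar1, with a log2 fold change of -0.72.

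In the comparisons of diets, the macrophage-made median was 0.78 in WD against CD and 1.07 in WD+7KC against CD+7KC, with 7 of 7 members higher in each. The hepatocyte-made medians were -0.11 and -0.16, the latter 0.054 after rescaling. In WD against CD, C3ar1 alone was above 1, beside 5.31% of all genes, and Cfd and C8b were below -1, beside 4.38%. In WD+7KC against CD+7KC, 6 members were above 1 (C1qa, C1qb, C1qc, Cfp, C5ar1 and C7), beside 8.01%, and Cfd was below -1, beside 4.61%. Among genes averaging 1 FPKM or more these shares were 2.62% and 2.04% without 7KC, and 5.11% and 2.81% with it. Past 1.5-fold, 7 members were higher and 4 lower in each of these comparisons, beside 13.5% and 10.8% of all genes without 7KC and 17.5% and 11.4% with it. Of genes averaging 1 FPKM or more the shares were 8.59% and 6.94%, and 11.8% and 8.33%. These comparisons share libraries with those of 7KC, so that they are not separate evidence.

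**Figure D2:**
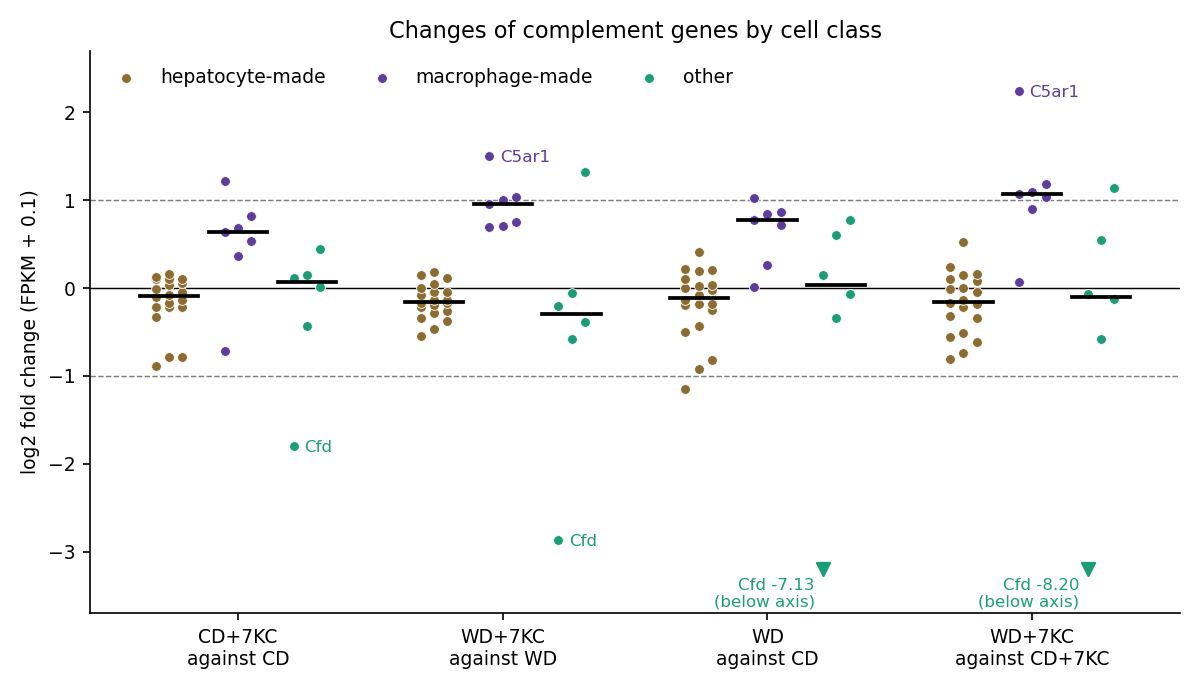
Log2 fold change (FPKM + 0.1) of each complement gene in the 4 comparisons, with 1 point per gene, black bars for class medians and dashed lines at 1 and -1. The macrophage-made median lies above the hepatocyte-made median in every comparison, and the triangles mark Cfd values of -7.13 and -8.20 that lie below the axis.

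C1qa, C1qb and C1qc encode the chains of C1q, the recognition molecule of the classical pathway. C1qa was at 31.3 FPKM (CD), 45.6 (CD+7KC), 57.0 (WD) and 95.7 (WD+7KC). C1qb was at 46.0, 59.3, 82.7 and 135 FPKM in the same order of libraries, and C1qc at 36.5, 57.0, 60.1 and 117 FPKM. All 3 genes were lowest in CD, higher in CD+7KC, higher again in WD and highest in WD+7KC. Their log2 fold changes in WD+7KC against WD were 0.75 for C1qa (95% counting interval 0.59 to 0.91), 0.70 for C1qb (0.57 to 0.84) and 0.96 for C1qc (0.81 to 1.10). In CD+7KC against CD they were 0.54 (0.32 to 0.76), 0.36 (0.18 to 0.55) and 0.64 (0.46 to 0.83). None of these intervals included 0, and rescaling kept every direction.

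The proportions of the chains changed little. C1qa made up between 27.5% and 28.5% of the summed C1q FPKM in the 4 libraries, C1qb between 36.6% and 41.4%, and C1qc between 30.1% and 35.2%.

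Macrophage markers were read beside C1q. A list of 13 macrophage markers outside the complement list, led by Lyz2, Cd5l and Ctss, summed to 207 FPKM (CD), 296 (CD+7KC), 352 (WD) and 676 (WD+7KC). For every 100 FPKM of these markers, the 3 C1q genes together had 54.9 FPKM (CD), 54.6 (CD+7KC), 56.8 (WD) and 51.4 (WD+7KC). By themselves the C1q genes were thus 3 times as high in WD+7KC as in CD (306% of CD for C1qa). Set against the marker sum, they differed little. This ratio does not depend on the scaling of the libraries, but it does depend on the markers chosen. From CD to WD+7KC, Lyz2 went from 65.9 to 147 FPKM, Cd5l from 30.9 to 173 and Ctss from 35.5 to 103. All 13 markers were higher in both 7KC comparisons, with medians of 0.96 under WD and 0.54 under CD, and none was at 0 in any library. Markers of sinusoidal endothelial cells, given with Cd55, were also highest in WD+7KC but were lowest in WD, and their part in the macrophage-made values was not tested.

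**Figure D3:**
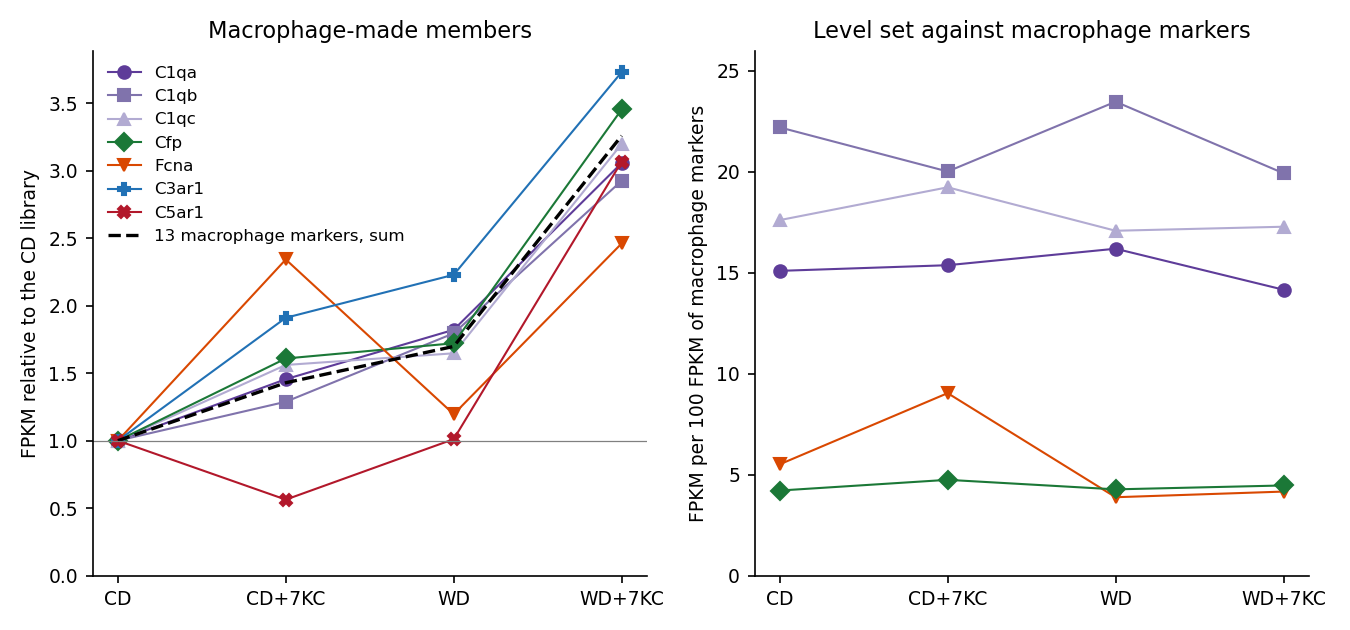
Left, FPKM of the 7 macrophage-made members relative to the CD library (lines join a gene's points and carry no order), with the sum of 13 macrophage markers as a dashed line. Right, FPKM of the C1q genes, Fcna and Cfp per 100 FPKM of those markers, where C1q and Cfp stay nearly level and Fcna rises to 9.04 in CD+7KC.

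Cfp encodes properdin, the stabilizer of the alternative pathway convertase, and followed the same course as C1q. It was at 8.74 FPKM (CD), 14.1 (CD+7KC), 15.0 (WD) and 30.2 (WD+7KC). Its log2 fold change was 0.9995 under WD (0.77 to 1.24), just short of the threshold, and 0.68 under CD (0.38 to 1.01). Against 100 FPKM of macrophage markers it was between 4.22 and 4.75 FPKM in all 4 libraries.

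Fcna encodes ficolin A, a sugar-binding recognition molecule of Kupffer cells and other macrophages, and it had another pattern. It was at 11.4 FPKM (CD), 26.8 (CD+7KC), 13.7 (WD) and 28.1 (WD+7KC). Both libraries with 7KC were high and both without it low, whatever the diet. The macrophage marker Cd163 was also higher in both, at 1.14 FPKM (CD), 2.91 (CD+7KC), 0.727 (WD) and 1.91 (WD+7KC). So were Clec4f and Vsig4, genes of Kupffer cells whose values are given below, and the sum of the sinusoidal endothelial markers given with Cd55. The log2 fold change of Fcna was 1.22 in CD+7KC against CD (0.94 to 1.51) and 1.04 in WD+7KC against WD (0.76 to 1.32). In WD against CD it was 0.26 (-0.077 to 0.60), and at this depth a difference was not detectable. Against 100 FPKM of macrophage markers Fcna was at 5.52 FPKM (CD), 9.04 (CD+7KC), 3.89 (WD) and 4.17 (WD+7KC). Clec4f, a lectin of resident Kupffer cells and a member of the marker list, was at 20.9, 40.2, 29.2 and 64.5 FPKM, so that Fcna per Clec4f ranged from 0.44 in WD+7KC to 0.67 in CD+7KC.

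The receptors for the small fragments C3a and C5a were near the lower end of the list. C3ar1 was at 0.531 FPKM (CD), 1.02 (CD+7KC), 1.18 (WD) and 1.98 (WD+7KC), and it was lowest in CD and highest in WD+7KC like C1q. C5ar1 was at 0.917 FPKM (CD), 0.516 (CD+7KC), 0.927 (WD) and 2.81 (WD+7KC), so that WD+7KC stood apart from the other libraries. About 23.5, 13.3, 20.3 and 79.2 reads were estimated behind the C5ar1 values. Its log2 fold change was 1.503 in WD+7KC against WD (0.90 to 2.41), while that in CD+7KC against CD had an interval of -1.93 to 0.21, and no difference was detectable at this depth.

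Neutrophils also carry C5ar1. Of 8 neutrophil markers 7 were listed, Mpo was at 0 in all 4 libraries, and their sum was between 15.9 and 22.4 FPKM, with the lowest value in WD. S100a8, which had the largest rise among them in WD+7KC against WD, was at 11.8 FPKM (CD), 10.3 (CD+7KC), 4.58 (WD) and 11.1 (WD+7KC). The part of neutrophils in the C5ar1 values was not tested.

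Among the recognition molecules made by hepatocytes, the mannose-binding lectins Mbl1 and Mbl2 were abundant. Mbl1 was at 245 FPKM (CD), 210.1 (CD+7KC), 181 (WD) and 143 (WD+7KC), and was thus highest in CD and lowest in WD+7KC. Mbl2 was at 336 FPKM (CD), 363 (CD+7KC), 384 (WD) and 321 (WD+7KC), and had no such order. The log2 fold change of Mbl1 in WD+7KC against WD was -0.34 (-0.42 to -0.26), or -0.12 after rescaling.

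The collectins Colec10 and Colec11 form a recognition molecule of the lectin pathway. Colec10 was at 6.16 FPKM (CD), 6.87 (CD+7KC), 9.38 (WD) and 6.27 (WD+7KC), so that WD stood above the other libraries. Colec11 was between 31.9 FPKM in WD+7KC and 36.8 FPKM in WD. A list of 10 stellate cell markers, led by Dcn, Ecm1 and Sparc, summed to 312 FPKM (CD), 259 (CD+7KC), 334 (WD) and 342 (WD+7KC), and its part in the Colec10 values was not tested.

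The proteases that start the cascade did not pass the threshold in any comparison. C1ra was between 38.5 and 44.8 FPKM, Masp1 between 12.98 and 17.1 FPKM, and Masp2 between 122 and 174 FPKM, and each had its lowest value in WD+7KC. In WD+7KC against WD the log2 fold changes were between -0.21 for Masp2 and -0.14 for Masp1, and after rescaling all 3 were above 0. Masp2 was lower in WD+7KC than in CD+7KC on both scales, with a log2 fold change of -0.51, or -0.31 (-0.36 to -0.25) after rescaling. Masp1 overlaps Rtp4 and Masp2 overlaps Tardbp on the other strand, and the strand setting of the read counting was not given in the sources used here.

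C3, the hub of all pathways, was at 743 FPKM (CD), 833 (CD+7KC), 759 (WD) and 734 (WD+7KC). Its highest value was in CD+7KC, with a log2 fold change of 0.16 against CD (0.15 to 0.18), but after rescaling WD+7KC was highest. Under WD the change was -0.047, or 0.17 after rescaling. Cfb, the protease subunit of the alternative pathway convertase, was at 336 FPKM (CD), 335 (CD+7KC), 389 (WD) and 354 (WD+7KC). C2, its counterpart in the classical pathway, was at 23.2, 24.9, 26.7 and 26.7 FPKM. Neither gene passed the threshold in any comparison, and both were higher in WD than in CD, with log2 fold changes of 0.21 and 0.20.

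C4b, the mouse C4 gene, was at 179 FPKM (CD), 163 (CD+7KC), 157 (WD) and 162 (WD+7KC). Its close copy C4a, the gene of sex-limited protein, was at 3.78, 2.98, 2.64 and 2.54 FPKM. C4b was between 47.4 and 63.6 times as high as C4a. Since the copies are alike in sequence, reads can be shared between them, and the C4a values are uncertain.

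The terminal components held the largest differences among the hepatocyte-made members, and they did not move as a block. C8a and C8b encode the alpha and beta chains of C8 and lie next to each other on chromosome 4 (C8a at 104815679 to 104876487). C8a was at 108 FPKM (CD), 62.4 (CD+7KC), 61.0 (WD) and 50.2 (WD+7KC). C8b was at 28.5 FPKM (CD), 15.4 (CD+7KC), 12.8 (WD) and 9.20 (WD+7KC). Both genes were highest in CD, where the other libraries reached at most 57.9% of the CD value for C8a and 54.1% for C8b.

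The log2 fold change of C8a was -0.79 in CD+7KC against CD (-0.86 to -0.71) and -0.82 in WD against CD (-0.90 to -0.74). For C8b it was -0.88 (-1.08 to -0.70) and -1.15 (-1.38 to -0.94). In WD+7KC against WD the changes were -0.28 for C8a and -0.47 for C8b, and after rescaling -0.066 (-0.16 to 0.024) and -0.25 (-0.52 to 0.013), with intervals that included 0.

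C8g encodes the gamma chain, a lipocalin bound to the alpha chain, and it was at 391 FPKM (CD), 421 (CD+7KC), 356 (WD) and 274 (WD+7KC). Unlike its partners it was highest in CD+7KC. The C8a level was 27.6% of the C8g level in CD, and 14.8% (CD+7KC), 17.1% (WD) and 18.3% (WD+7KC) of it elsewhere. C8g overlaps Fbxw5 on the other strand, which was between 16.9 and 23.7 FPKM.

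C9, which forms the ring of the pore, divided the libraries by diet. It was at 288 FPKM (CD), 299 (CD+7KC), 151 (WD) and 171 (WD+7KC). Both WD libraries were at or below 59.6% of the CD value and both CD libraries were close to each other. The log2 fold change was -0.92 in WD against CD (-0.99 to -0.86) and -0.80 in WD+7KC against CD+7KC (-0.86 to -0.75), or -0.59 after rescaling. In the 7KC comparisons it was 0.18 under WD and 0.057 under CD.

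C6 divided the libraries by 7KC instead. It was at 22.3 FPKM (CD), 12.9 (CD+7KC), 22.4 (WD) and 15.3 (WD+7KC), so that both libraries with 7KC lay below both without it. The log2 fold change was -0.78 in CD+7KC against CD (-0.97 to -0.60) and -0.55 in WD+7KC against WD (-0.73 to -0.37), or -0.33 (-0.51 to -0.16) after rescaling. In WD against CD it was 0.005 (-0.16 to 0.17).

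Hc, the gene of C5, was between 82.7 FPKM in CD+7KC and 96.0 FPKM in CD. C7 was between 0.108 and 0.379 FPKM, with 2.9 to 10.7 estimated reads, and is the least certain member. Its value above 1 in WD+7KC against CD+7KC had an interval of -0.18 to 4.22, or 0.030 to 4.43 after rescaling.

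**Figure D4:**
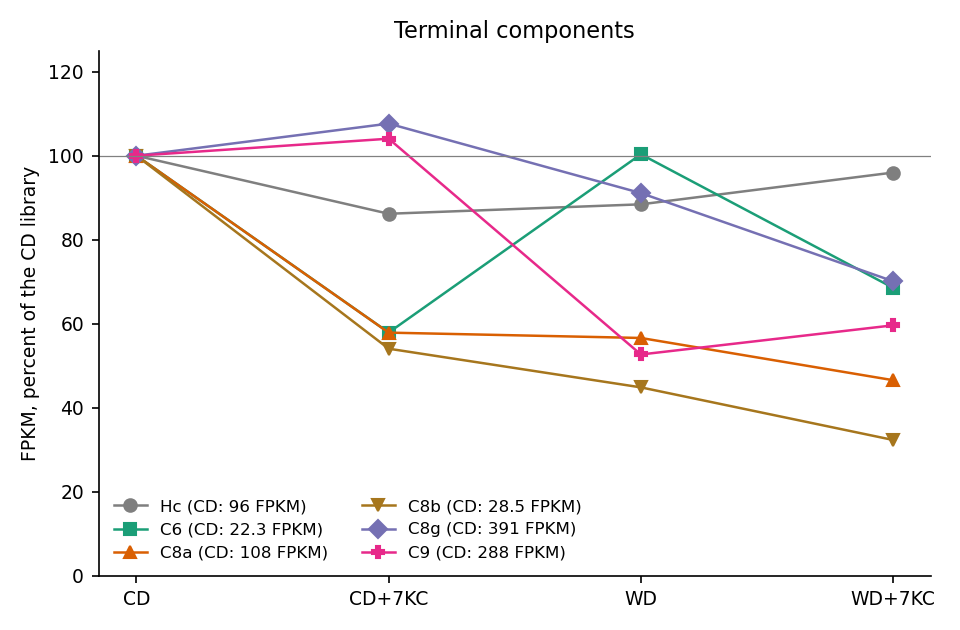
FPKM of 6 terminal components as a percent of the CD library, with lines that join a gene's points and carry no order. C8a and C8b lie below 60% in the other 3 libraries, C9 is low in both WD libraries, and C6 is low in both 7KC libraries. Hc stays between 86.2% and 96.0% on the deposited values shown.

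Cfd (chromosome 10, 79890853 to 79892655) encodes factor D, also called adipsin, the protease that cuts factor B, and it had the largest difference of all members in each comparison. Cfd was at 220.0 FPKM (CD), 63.2 (CD+7KC), 1.47 (WD) and 0.115 (WD+7KC). It was lower with 7KC under both diets and lower in WD than in CD with or without 7KC. About 1738, 501, 10 and 1 reads were estimated behind these values.

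Cfd was 149-fold lower in WD than in CD (counting interval 80.8 to 311), and 3.48-fold lower in CD+7KC than in CD (3.15 to 3.85). In WD+7KC it was 12.8-fold lower than in WD, with an interval of 1.83 to 557 because of the single read. Of 10664 genes averaging 1 FPKM or more over the 4 libraries, a level Cfd reached through its CD libraries, it had the 5th largest fall in WD against CD. As a share of Cfb, the substrate of factor D, the Cfd level was 65.4% (CD), 18.9% (CD+7KC), 0.38% (WD) and 0.032% (WD+7KC).

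Factor D is mainly a product of fat cells, so fat cell markers were read beside it. Plin1 was listed at 0 in all 4 libraries. Adipoq, the adiponectin gene, was at 0.0885 FPKM in CD and 0.0882 in CD+7KC and was listed at 0 in WD and WD+7KC. These defining markers of fat cells were thus at or near 0 also in the CD library, where Cfd was at 220.0 FPKM. Retn, another product of mouse fat cells, was at 1.21 FPKM in CD and 0.241 in CD+7KC and was listed at 0 in WD and WD+7KC, which is the order of Cfd at far lower levels.

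The other fat cell markers are also expressed outside fat. Car3 was at 3466 FPKM (CD), 3096 (CD+7KC), 1189.9 (WD) and 778 (WD+7KC), in the same order as Cfd but with smaller differences. Fabp4 was between 66.5 and 143 FPKM and Cidec between 115 and 202 FPKM, both highest in a WD library. Lipe was between 5.97 and 6.86 FPKM.

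**Figure D5:**
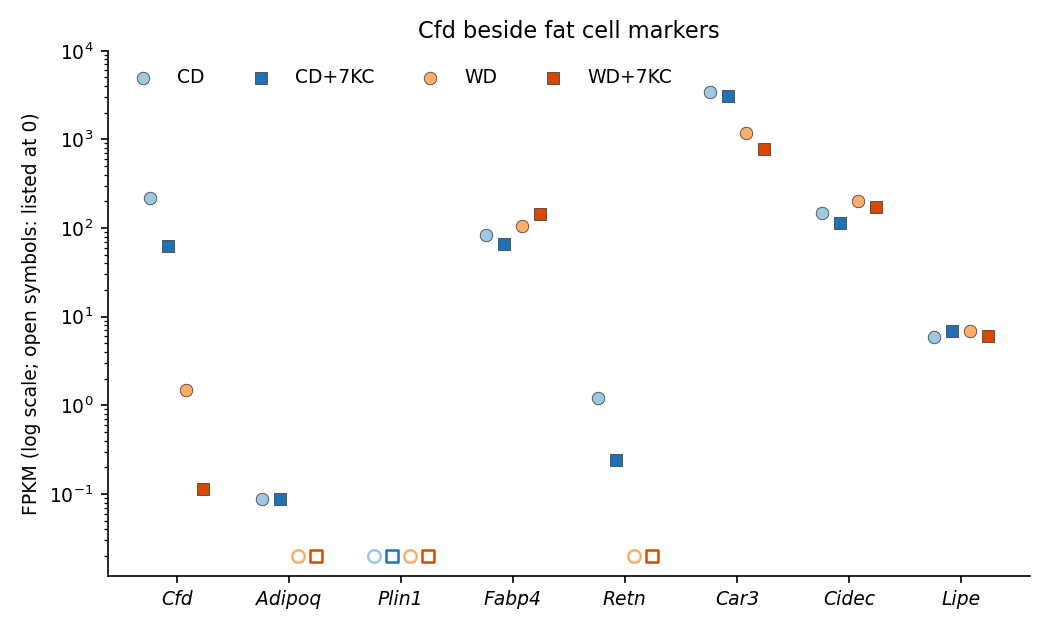
FPKM (log scale) of Cfd and 7 fat cell markers in the 4 libraries, with open symbols at the bottom for values listed at 0. Cfd spans from 220.0 to 0.115 FPKM, while the fat cell genes Adipoq and Plin1 are at or near 0 throughout.

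Of the regulators in plasma, Clu varied most. Cfi, the protease that degrades C3b and C4b, was between 256 and 288 FPKM, and C4bp, its cofactor for C4b, between 268 and 300.3 FPKM. Vtn, which encodes vitronectin, an inhibitor of pore formation, was between 666 and 829 FPKM. Clu, which encodes clusterin, another such inhibitor, was at 681 FPKM (CD), 699 (CD+7KC), 907 (WD) and 1005 (WD+7KC). Clu was higher in both WD libraries, with a log2 fold change of 0.41 in WD against CD (0.38 to 0.45) and 0.52 in WD+7KC against CD+7KC (0.49 to 0.56).

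The regulators anchored on cells differed from each other. Cd55, which encodes the decay-accelerating factor that takes convertases apart, was at 4.57 FPKM (CD), 6.23 (CD+7KC), 3.59 (WD) and 9.12 (WD+7KC). Its log2 fold change was 1.32 in WD+7KC against WD (0.97 to 1.72) and 0.44 in CD+7KC against CD (0.093 to 0.80). Cd59a, whose product blocks the insertion of C9, was at 65.4, 70.9, 62.2 and 47.5 FPKM, with its lowest value in WD+7KC.

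Endothelial cells carry Cd55, and 8 sinusoidal endothelial markers were read beside it. Their sum was 75.8 FPKM (CD), 113 (CD+7KC), 62.2 (WD) and 176 (WD+7KC), the same order of libraries as that of Cd55. All 8 were above 1 in WD+7KC against WD, from 1.07 for Pecam1 to 1.95 for Kdr. Their part in the Cd55 values was not tested.

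Another 25 complement genes were read for comparison. Of these, 23 were listed and 22 had a value above 0 in WD or WD+7KC. In WD+7KC against WD, 4 were above 1 and 0 were below -1, beside 6.21% and 2.79% of all genes, and the 4 were Cd93, C5ar2, Itgb2 and Itgam. In CD+7KC against CD, 0 were above 1 and 0 below -1, beside 3.84% and 2.91% of all genes. Past 1.5-fold 3 (13.6%) were higher, beside 10.4% of all genes, and 1 (4.55%) was lower, beside 7.11%. Itgb2 and Itgam encode the chains of complement receptor 3 of phagocytes.

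Vsig4, the complement receptor of Kupffer cells, was at 13.5 FPKM (CD), 26.2 (CD+7KC), 21.9 (WD) and 39.2 (WD+7KC). Of these genes that averaged 1 FPKM or more, it had the largest log2 fold change in CD+7KC against CD, at 0.95 (0.69 to 1.21), and it was at 0.83 under WD. Cd93 was at 1.59 FPKM (CD), 1.24 (CD+7KC), 1.11 (WD) and 3.86 (WD+7KC), so that WD+7KC stood apart as for C5ar1.

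Cpn2, a subunit of the carboxypeptidase that inactivates C3a and C5a, had the lowest value of these genes in CD+7KC against CD among those averaging 1 FPKM or more. It was at 47.3 FPKM (CD), 35.4 (CD+7KC), 50.6 (WD) and 40.8 (WD+7KC), and its log2 fold change in that comparison was -0.42 (-0.51 to -0.33), short of the threshold.

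Many hepatocyte-made complement genes are acute-phase genes, which the liver switches on in inflammation. A list of 16 other acute-phase genes had its median log2 fold change at -0.047 in WD+7KC against WD, with 7 higher and 9 lower, or 0.17 after rescaling. In CD+7KC against CD the median was -0.22, with 6 higher and 10 lower. The largest rise in both comparisons was that of Orm2, at 134 FPKM (CD), 193 (CD+7KC), 122 (WD) and 206 (WD+7KC). The largest falls were those of Saa4 under WD (-0.53) and Apcs under CD (-0.71), and none of the 16 genes was past the threshold in either 7KC comparison.

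Hepatocyte markers were read beside these values. Of 10 genes 9 were listed, and the 3 highest were Alb, Ttr and Apoa1. Their sum was 57568 FPKM (CD), 48882 (CD+7KC), 59469 (WD) and 47499 (WD+7KC), lower in both libraries with 7KC. Their median, on the log2 scale, was -0.26 in WD+7KC against WD and -0.17 in CD+7KC against CD, beside -0.15 and -0.091 for the hepatocyte-made complement genes. After rescaling the marker medians were -0.045, with 4 higher and 5 lower, and -0.13, with 1 higher and 8 lower. Lymphocyte genes were sparse, with 7 of 8 markers listed and a summed level of at most 2.49 FPKM.

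The 7KC changes under the diets, which come from separate pairs of libraries, had the same sign in 6 of 7 macrophage-made members. Among the 20 hepatocyte-made members the sign was the same in 14 with the deposited values and in 10 after rescaling. The share of all genes with the same sign was not taken, so these counts are not read as particular to the members. C6, C8a, C8b, Mbl1 and Cfd were lower with 7KC under both diets on both scales. Under WD, the rescaled changes of C8a and C8b were within counting error, and Cfd rested on about 1 read in WD+7KC.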

How the data were processed

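Liver RNA was sequenced, with 1 library for each of the 4 groups. Libraries were stranded mRNA libraries read in 75-base single-end mode. According to the labels and the methods, the authors mapped reads to mm10 with TopHat2 2.0.13, Bowtie2 2.2.3 and SAMtools 0.1.19 and computed FPKM values with Cufflinks 2.2.1. The FPKM values were used as deposited. The annotation and the Cufflinks options were not given in the sources used here.

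Log2 fold changes used a pseudocount of 0.1 FPKM over genes above 0 in at least 1 of the 2 libraries compared. A call was a value above 1 or below -1. With 1 library per group there were no replicates, and no test was run. Members and gene lists were chosen with earlier results of these data known. Beside the members, the rule for named genes took the largest rise and fall of each other list under 7KC and the 3 highest genes of marker lists, among genes averaging 1 FPKM or more. Other genes named were chosen after their values were seen. A gene that the rule took from the other complement genes is not reported here.

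Fragments per library were estimated from steps of low values in 14589 genes with 1 RefSeq mRNA, taking transcript length (GENCODE vM21, GRCm38) minus 200 bases. Between 74.2% and 76.2% of 1077 to 1131 low values per library lay within 0.1 of a whole read. For members with several mRNAs the longest was used, and C4a had no estimate. Alternatives were other pseudocounts, scalings, thresholds and a filter. Functions were tested on simulated data. Promoters and positions came from RefSeq (GRCm38.p6), matched by symbol for 24 and 33 of the members. Python 3.11.15, numpy 2.4.6, pandas 2.3.3, scipy 1.17.1 and matplotlib 3.10.9 were used.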

Additional observations from a re-analysis of the deposited data

Results flagged for a closer look

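With 1 library per group no spread within a group could be examined. In 4 members the 7KC change had opposite signs under WD and CD, with counting intervals that excluded 0 on the deposited and the rescaled values. The share of all genes that meet this rule was not taken, so the count is not read as particular to the members. The difference between the diets was not tested. The log2 fold change of C8g was -0.38 under WD and 0.11 under CD, and that of Cd59a was -0.39 under WD and 0.12 under CD. Hc had 0.12 under WD and -0.21 under CD, and C4b had 0.045 under WD and -0.14 under CD. The largest difference between the diets was that of C5ar1, with 1.503 under WD and -0.72 under CD, but its counting interval under CD included 0.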

How the results depend on the processing

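With the deposited values 3 members were above 1 and 1 below -1 in WD+7KC against WD. Shares over all genes were taken only for the deposited values with a pseudocount of 0.1 FPKM, past 1 and past 1.5-fold. Counts under the other settings have no such share beside them and describe the effect of the settings only. Rescaling to equal sums (TPM), upper quartile scaling and equal sums without the 20 highest genes each gave 5 members above 1, and a pseudocount of 1 FPKM gave 1. In WD against CD, 1 member was above 1, against 0 with a pseudocount of 1 FPKM and 2 with 0.01 FPKM. A threshold of 1.5-fold gave 8 members above it in WD+7KC against WD, 4 above and 5 below in CD+7KC against CD, 7 above and 4 below in WD against CD, and 4 below in WD+7KC against CD+7KC. A threshold of 2 left 0 above in WD+7KC against WD, 0 above and 0 below in CD+7KC against CD, 0 above and 1 below in WD against CD, and 1 above in WD+7KC against CD+7KC. The hepatocyte-made median in WD+7KC against WD was -0.15 with the deposited values, 0.061 after rescaling to equal sums, -0.048 with upper quartile scaling and 0.020 without the 20 highest genes. In WD+7KC against CD+7KC it was -0.16, 0.054 after rescaling and 0.039 without the 20 highest genes. These shifts follow from the scale factors, which move all genes of a library together. Over all scalings, pseudocounts and the filter, the macrophage-made median was between 0.95 and 1.17 in WD+7KC against WD. In CD+7KC against CD it was between 0.53 and 0.68. Its difference from the hepatocyte-made median was between 1.10 and 1.11 in WD+7KC against WD and between 0.62 and 0.75 in CD+7KC against CD. Scale factors leave this difference unchanged apart from the pseudocount, so the scalings do not test it. Rescaling changed the sign of 11 members in WD+7KC against WD, all of them within 0.21 of 0, and of 7 in WD+7KC against CD+7KC, but of none that was past the threshold. No paired analysis was possible because each group had 1 library and so no replicate numbers to pair, and for the same reason no replicate could be left out. An additive fit of diet and 7KC over the 4 libraries was not run. Depth limits C7, C3ar1, C5ar1, and Cfd and Cd55 under WD, which rested on fewer than 100 estimated reads in a library.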
